A study of Homo sapiens with 2 samples.

Results

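The miR-29 family of microRNAs (miRNAs) was examined in HepG2 cells, a human liver cancer line. The cells had received an adenoviral vector named for the ultraconserved transcript uc.372 (Ad-uc.372) or the control vector (Ad-NC) for 48 h. The members were all array entries, controls excluded, whose name was that of an annotated arm of miR-29a, miR-29b-1 or miR-29c, or the 3p arm shared by both miR-29b genes. This gave 6 of the 2549 miRNAs on the array, read by 16 probes and 120 spots on each of the 2 arrays. Total RNA (200 ng) was labelled with Cy3 and hybridized to an Agilent human miRNA microarray (V21.0), with 1 array per condition, so that no p-value across samples can be given and each error below is the spread between spots of a probe. The title of the deposited series and the text of the study name uc.372 overexpression for these arrays, although the sample names do not say whether the vector overexpressed or inhibited the transcript, and a supplementary scatter plot of the study carries the suffix of its inhibitor vectors. Each direction below is that of the array labelled Ad-uc.372 relative to the array labelled Ad-NC. The array reads miRNAs, so that uc.372 itself was not measured and the vector labels could not be checked. Of the miRNAs that mark hepatocytes, miR-192-5p and miR-194-5p were detected by both of their probes on each array, whereas miR-122-5p, the defining miRNA of normal liver, was detected by neither of its probes.

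A miRNA is cut from a hairpin precursor, and either arm of the hairpin (5p or 3p) can be loaded onto an Argonaute protein, where the seed, the bases near the 5′ end, pairs with target mRNAs and leads to their repression. The 3p arms of the miR-29 family are the arms that usually accumulate. Their known targets include collagens and other extracellular matrix genes, and the de novo DNA methyltransferases DNMT3A and DNMT3B. In liver, loss of miR-29 from stellate cells accompanies fibrosis, and in hepatocellular carcinoma the family has been described as tumor suppressive.

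The mature sequences, read from RefSeq (GRCh38.p14), are shown because the 3p members share a seed and differ only at a few later positions. Capitals mark the seed, bases 2 to 8.
hsa-miR-29a-3p: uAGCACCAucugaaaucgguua
hsa-miR-29b-3p: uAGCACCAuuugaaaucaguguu
hsa-miR-29c-3p: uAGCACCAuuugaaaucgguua
hsa-miR-29a-5p: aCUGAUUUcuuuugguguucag
hsa-miR-29b-1-5p: gCUGGUUUcauauggugguuuaga
hsa-miR-29c-5p: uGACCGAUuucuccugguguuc

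The 3 3p members carried the same seed, AGCACCA, and none of the other array miRNAs that could be matched to RefSeq by name (2248 matched) carried it. With positions counted from 1 at the 5′ end, miR-29a-3p and miR-29c-3p differed by 1 of 22 bases, C10U, giving 95.5% identity. The files used here hold no probe sequences, so how far a probe for one of these also binds the other was not tested. Over the same 22 bases miR-29c-3p and miR-29b-3p differed by G18A, U21G and A22U, giving 86.4% identity, and miR-29b-3p was 1 base longer. miR-29b-3p ended in the hexamer AGUGUU, known as a nuclear import element of this miRNA. Only 2 of the 2248 matched miRNAs (0.089%) ended in these 6 letters, miR-29b-3p and miR-519e-3p, and of these only miR-29b-3p was measured on both arrays. Each 5p arm had a seed of its own, which no other matched miRNA on the array shared.

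The family comes from 4 hairpins, all on the minus strand in RefSeq (GRCh38.p14). MIR29A lies at chr7:130876747-130876810 and MIR29B1 at chr7:130877459-130877539, with 648 bases between them. MIR29C lies at chr1:207801852-207801939 and MIR29B2 at chr1:207802443-207802523, with 503 bases between them, and both fall within the span of the long noncoding RNA gene MIR29B2CHG. The deposited files give no genome coordinates for the probes, and the array grid is annotated to another build. The hairpins MIR29A and MIR29B1 are shown with both arms in capitals, the 5p arm first, because the 5p arm was measured for MIR29B1 and not for MIR29A.
MIR29A: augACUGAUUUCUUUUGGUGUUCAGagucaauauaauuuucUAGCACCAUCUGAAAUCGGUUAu
MIR29B1: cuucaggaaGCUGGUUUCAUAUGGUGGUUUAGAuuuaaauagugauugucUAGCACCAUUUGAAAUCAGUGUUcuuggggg
MIR29B1 and MIR29B2 give the same miR-29b-3p, so its signal cannot be assigned to chromosome 7 or chromosome 1. The 5p arm of MIR29B2, hsa-miR-29b-2-5p, is not one of the 6 members, and on neither array did any of its probes rise well above background.

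For each array the image software sets a limit past which a spot is well above background, and the lowest intensity among such spots was 21.1 with Ad-NC and 17.3 with Ad-uc.372. A probe was taken as measured when at least 50% of its spots passed on both arrays. By this criterion 4 of the 6 members were measured on both arrays, namely hsa-miR-29a-3p, hsa-miR-29b-3p, hsa-miR-29c-3p and hsa-miR-29b-1-5p, whereas 229 of all 2549 miRNAs (8.98%) were. hsa-miR-29a-5p and hsa-miR-29c-5p had no spot well above background on either array. All 3 3p members were therefore measured, but only 1 of the 3 5p members. Among the hairpins with both arms on the array, 122 had an arm measured on both arrays, and in 13 of these (10.7%) both arms were measured, in 44 (36.1%) only the 3p arm and in 65 (53.3%) only the 5p arm. MIR29B1 was among the 13, while MIR29A, MIR29B2 and MIR29C were among the 44.

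For the comparison, dimmer spots were set to the limit and a probe's level was its mean log2 intensity. From every level the array's own 75th percentile over the measured probes was then taken off. That percentile corresponded to an intensity of 304.6 with Ad-NC and 356.5 with Ad-uc.372, so the scaling lowered the Ad-uc.372 values by 0.23 on the log2 scale relative to Ad-NC. Over the 229 measured miRNAs the log2 difference (Ad-uc.372 minus Ad-NC) had a median of -0.17 and quartiles of -0.34 and 0.013. The software marked 1273 spots with Ad-NC and 1657 spots with Ad-uc.372 as outliers, which were left out, and 4 and 5 of these belonged to the family. No spot was saturated.

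None of the 4 measured members differed by 1.5-fold in either direction. This is the fold part of the study's threshold for its arrays, which also used a t-test. Of the 229 measured miRNAs, 3 (1.31%) passed 1.5-fold upward and 6 (2.62%) passed it downward with Ad-uc.372. The median log2 difference of the 4 members was -0.21, which minus that of all measured miRNAs gave -0.041, and the 3p members alone had a median of -0.16. Of the 4 members, 3 lay below 0, as did 169 of the 229 measured miRNAs (73.8%). These counts rest on the scaling: with none, 2 of the 4 members and 97 of the 229 miRNAs (42.4%) lay below 0, and with the 75th percentile over all probes, measured or not, 1 of the 4 and 20 of the 229 (8.73%) did. The members' median lay within the quartiles of all measured miRNAs, as did 2 of the 4 members. miR-29b-3p lay just above the upper quartile (0.0135 against 0.0131), and miR-29b-1-5p lay below the lower one (-0.52 against -0.34).

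**Figure D1:**
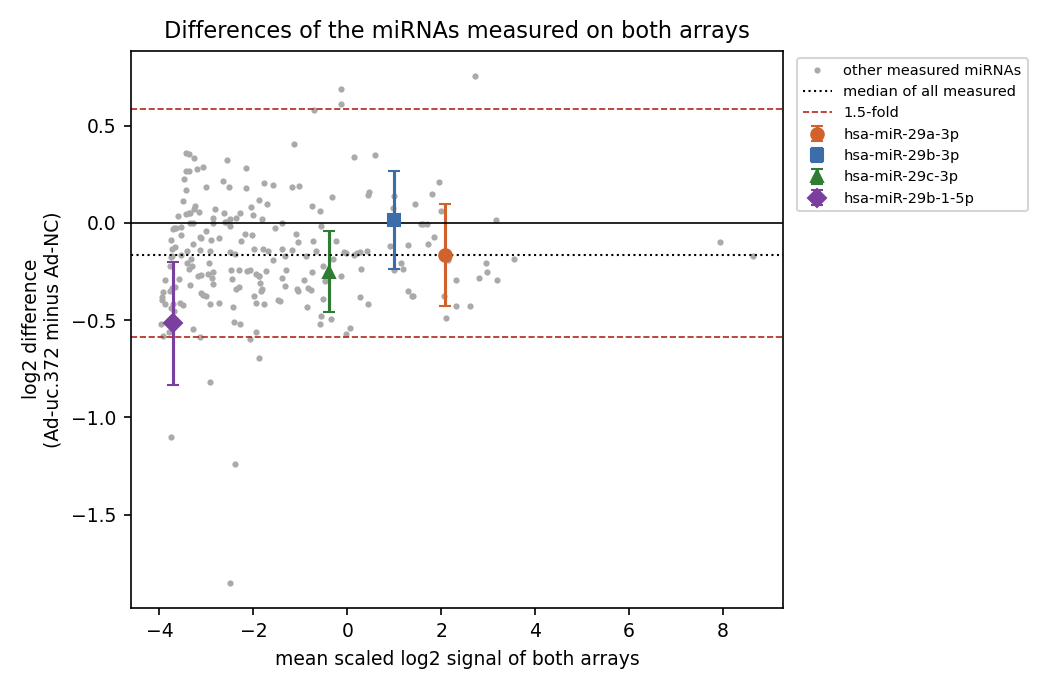
Log2 difference (Ad-uc.372 minus Ad-NC) of each of the 229 miRNAs measured on both arrays against its mean scaled log2 signal; gray points are the other miRNAs, colored symbols the 4 measured miR-29 members, and bars 1 SD between spots of both arrays combined. All 4 members lie between the dashed 1.5-fold lines, with miR-29b-3p at 0.01 and the dim miR-29b-1-5p at -0.52.

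hsa-miR-29a-3p was read by 2 probes, which behaved differently. On its first probe the 10 spots ranged from 551 to 768 with a median of 704 with Ad-NC, and from 531 to 1001 with a median of 912 with Ad-uc.372. After scaling, 6 of the 10 Ad-uc.372 spots lay above every Ad-NC spot, 3 lay within the Ad-NC range and 1 lay below it, and the log2 difference of the means was 0.02 ± 0.35 (SD between spots).

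On the second probe 7 spots remained with Ad-NC after 3 outliers were dropped, and they ranged from 2633 to 2742 with a median of 2684. The 10 Ad-uc.372 spots ranged from 2253 to 2872 with a median of 2431. Here the scaled groups did not overlap, all 10 Ad-uc.372 spots lying below the 7 Ad-NC spots, and the log2 difference was -0.35 ± 0.11 (SD between spots). Before scaling 9 of the 10 lay below the Ad-NC spots and 1 above them. This separation rested in part on the dropped spots: with the outliers kept, the Ad-NC spots ranged from 2417 to 3058, and 9 of the 10 Ad-uc.372 spots lay below all of them. Of the 393 probes measured on both arrays, 83 (21.1%) had all Ad-uc.372 spots below all Ad-NC spots and 6 (1.53%) had all above.

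The mean of both probes gave miR-29a-3p a log2 difference of -0.16 (SD between spots 0.26), rank 116 of 229 from the lowest. Its probes were 0.38 apart on the log2 scale. Among the 157 measured miRNAs with more than 1 measured probe the median distance was 0.11, and 19 had a distance at least as large as that of miR-29a-3p. The distance within miR-29a-3p also exceeded the 0.26 between the highest and lowest of the 3 3p members. Probes that differed in sign were not rare, occurring in 30 of the 157.

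hsa-miR-29b-3p, the member with the hexamer, rested on 1 of its 2 probes, as 72 of the 229 measured miRNAs (31.4%) rested on 1 of several. The 9 spots used ranged from 473 to 682 with a median of 631 with Ad-NC, and from 586 to 792 with a median of 762 with Ad-uc.372. After scaling all 9 Ad-uc.372 spots lay within the Ad-NC range, and the log2 difference was 0.01 (SD between spots 0.25), rank 173 of 229. Before scaling 6 of the 9 lay above every Ad-NC spot. The second probe stayed at background, with a mean intensity of 2.05 ± 3.75 with Ad-NC and 4.96 ± 2.99 with Ad-uc.372 (SD, 10 spots each).

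hsa-miR-29c-3p was read by 2 probes whose scaled differences were alike. The first ranged from 203 to 271 with a median of 239 with Ad-NC (10 spots), and from 200 to 257 with a median of 230 with Ad-uc.372 (9 spots). The second ranged from 215 to 318 with a median of 284 with Ad-NC (10 spots), and from 261 to 306 with a median of 274 with Ad-uc.372 (8 spots). After scaling, 8 of the 9 Ad-uc.372 spots of the first probe lay below every Ad-NC spot, but all 8 spots of the second lay within the Ad-NC range. With the outliers kept, 8 of the 10 Ad-uc.372 spots of the first probe and 2 of the 10 of the second lay below every Ad-NC spot. With the outliers left out, the log2 differences of the probes were -0.29 and -0.21 after scaling but -0.059 and 0.013 before it. The member's scaled mean was -0.25 (SD between spots 0.21), rank 87 of 229.

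The order of the 3p differences was thus miR-29b-3p, miR-29a-3p and miR-29c-3p from highest to lowest. Neighbors in this order differed by less than the SD between spots of either. This SD is that of single spots, not the error of a mean, and it leaves out the distance between probes. The levels of the 3p members were not compared with each other, because different probes can bind their targets unequally.

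**Figure D2:**
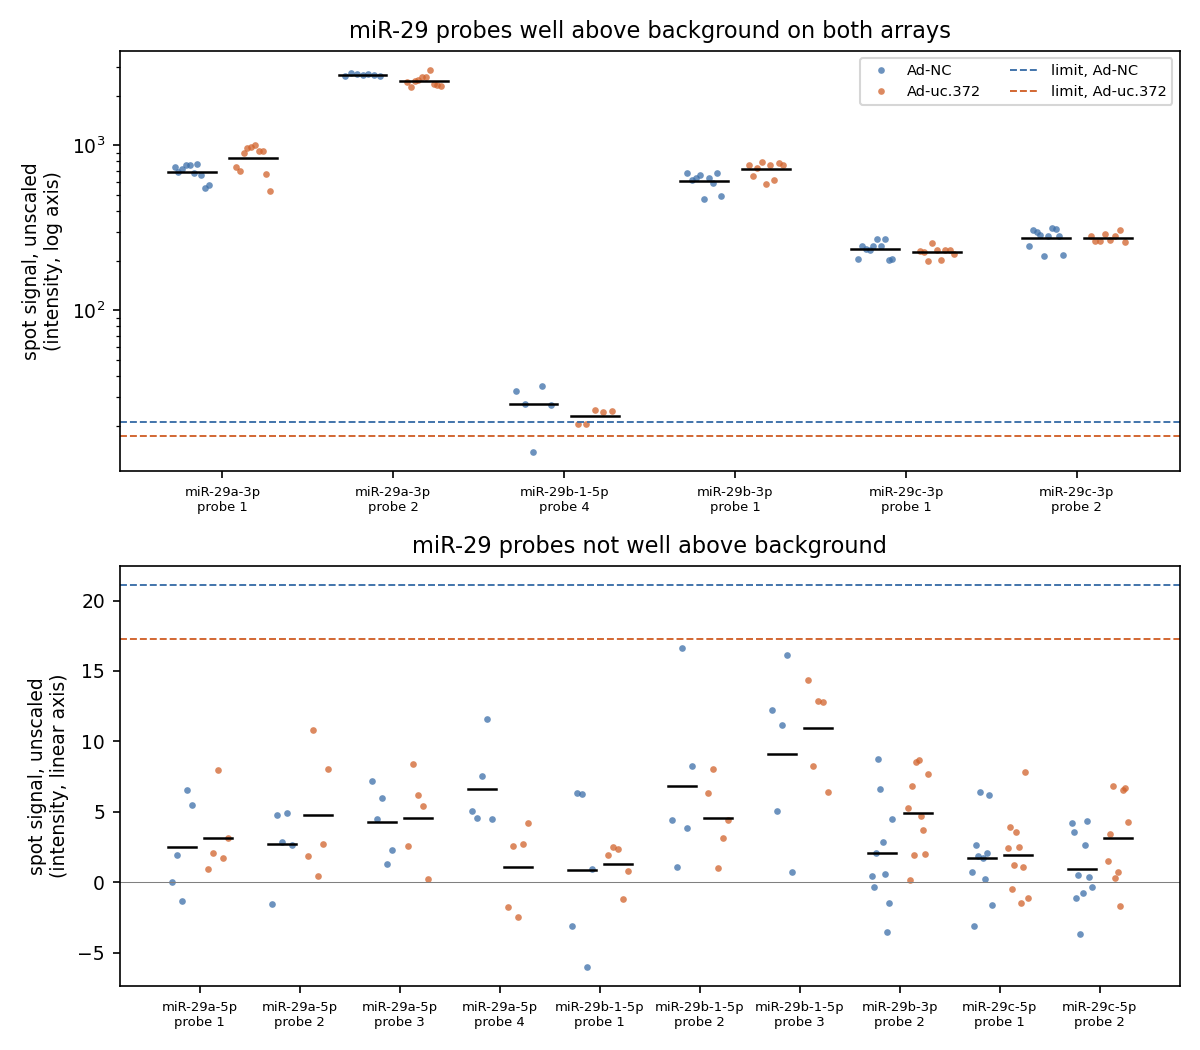
Intensity of each miR-29 spot after background subtraction and before scaling, for the 6 measured probes (top, log axis) and the 10 that were not (bottom, linear axis); black bars are means over spots, outlier spots are left out, and dashed lines are the limits of 21.1 (Ad-NC) and 17.3 (Ad-uc.372). The second miR-29a-3p probe has its Ad-uc.372 mean below the tight Ad-NC spots, and miR-29b-1-5p sits near the limits.

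Both arrays carry the same probe at each grid position, so spots were also matched by position, a comparison added after the values were seen. Before scaling, miR-29b-3p was brighter with Ad-uc.372 at all 9 positions (log2 differences of 0.06 to 0.63), and its outlier spot was the dimmest on each array, with 218 for Ad-NC and 242 for Ad-uc.372. The second probe of miR-29a-3p was dimmer at all 7 positions, by log2 differences of -0.20 to -0.05. Its first probe was brighter at 8 of 10 positions. The miR-29c-3p probes were mixed, being dimmer at 5 of 9 and 6 of 8 positions with mean log2 differences of -0.036 and -0.072. Of the 393 measured probes, 52 (13.2%) were dimmer with Ad-uc.372 at every position before scaling and 72 (18.3%) were brighter at every position.

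After scaling, which took 0.23 off every log2 difference, the miR-29b-3p differences straddled 0, being higher at 4 of the 9 positions and lower at 5. The second miR-29a-3p probe was lower at all 7 positions (-0.42 to -0.27), and both miR-29c-3p probes, mixed before, were now lower at every position, 9 of 9 (-0.51 to -0.03) and 8 of 8 (-0.44 to -0.03). A probe lower at every position was common, being found for 143 of the 393 measured probes (36.4%), against 17 (4.33%) higher at every position. The miR-29a-3p and miR-29c-3p probes that were lower throughout were therefore like a large share of the array.

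**Figure D3:**
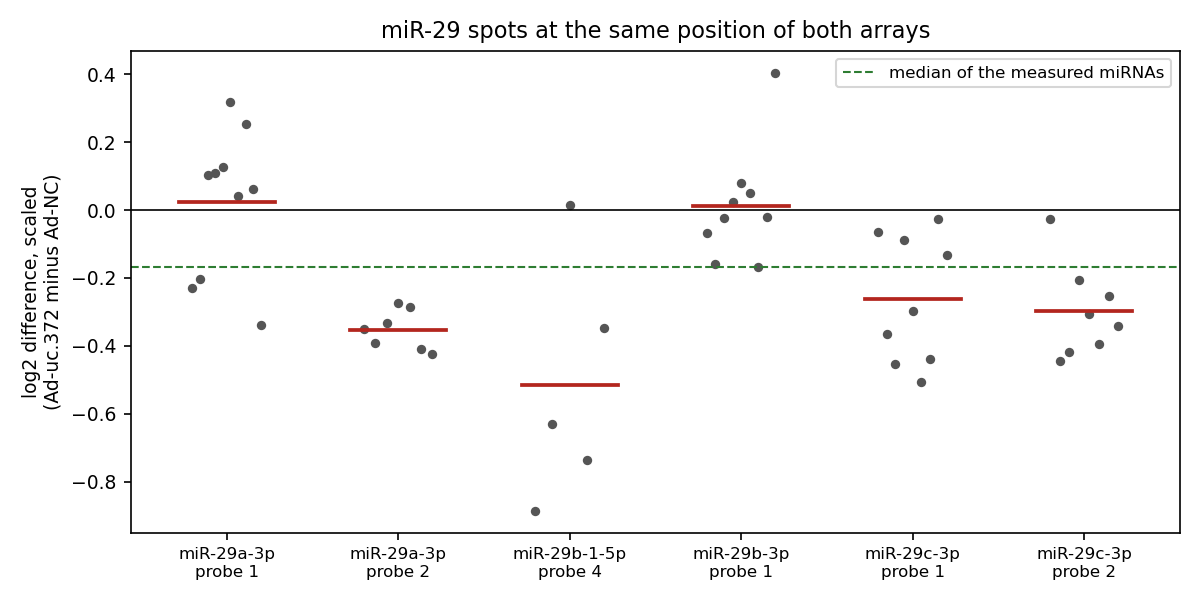
Scaled log2 difference (Ad-uc.372 minus Ad-NC) between spots at the same position of both arrays, for the 6 measured miR-29 probes; each point is 1 position, red bars are means, and the dashed line is the median of all measured miRNAs (-0.17). All 7 positions of the second miR-29a-3p probe lie below the dashed line, whereas those of the first probe and of miR-29b-3p lie on both sides of 0.

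hsa-miR-29b-1-5p, the only 5p member measured, rested on 1 of its 4 probes. Its 5 spots were 13.9 to 34.7 with a median of 27.0 with Ad-NC, where 4 of the 5 were well above background, and 20.5 to 25 with a median of 24.4 with Ad-uc.372. At their measured values all 5 Ad-uc.372 spots lay within the Ad-NC range before scaling. With the dimmest Ad-NC spot raised to the limit and the arrays scaled, 4 of the 5 lay below every Ad-NC spot, and the log2 difference was -0.52 (SD between spots 0.32), which is 1.43-fold lower with Ad-uc.372 and rank 17 of 229. The difference between the scaled detection limits of the arrays was also -0.52, so a spot sitting at the limit on both arrays would give the same value. The other 3 probes of this arm had no spot above either limit.

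The direction of miR-29b-1-5p depended on which probes were summed. In the total signal that the software gives for each miRNA, this arm went from 1.91 ± 0.36 with Ad-NC to 2.40 ± 0.39 with Ad-uc.372 (software error). The Ad-NC total equaled that of the measured probe alone (1.91), whereas the Ad-uc.372 total equaled the sum of that probe (1.63) and another probe of the arm (0.773). The measured probe by itself was thus lower with Ad-uc.372 in these totals too, and the higher total came with the added probe.

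The software's totals for the 3p members were 477 ± 39.2 and 466 ± 36.9 for miR-29a-3p, 85.9 ± 8.68 and 101 ± 10.2 for miR-29b-3p, and 72.4 ± 5.24 and 71.1 ± 5.11 for miR-29c-3p with Ad-NC and Ad-uc.372, respectively. For each of these members the ranges given by the software's errors overlapped between the arrays. In the deposited table of normalized log2 values, miR-29a-3p was 7.51 with Ad-NC and 7.15 with Ad-uc.372, a difference of -0.36. miR-29c-3p was 4.79 and 4.44 there, a difference of -0.35, and miR-29b-3p was 5.04 and 4.95, a difference of -0.090. The undetected miR-29a-5p and miR-29c-5p have -4.71 and -5.04 there, and this difference of -0.33 is that of the constants subtracted on the arrays (1.39 and 1.71), not of a measured signal. The same constants enter the deposited differences of the 3p members. Without them, the log2 differences of the totals were -0.034 for miR-29a-3p, 0.24 for miR-29b-3p and -0.027 for miR-29c-3p. Over the 279 miRNAs compared in the deposited values, the median difference was -0.26, and 224 (80.3%) lay below 0.

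**Figure D4:**
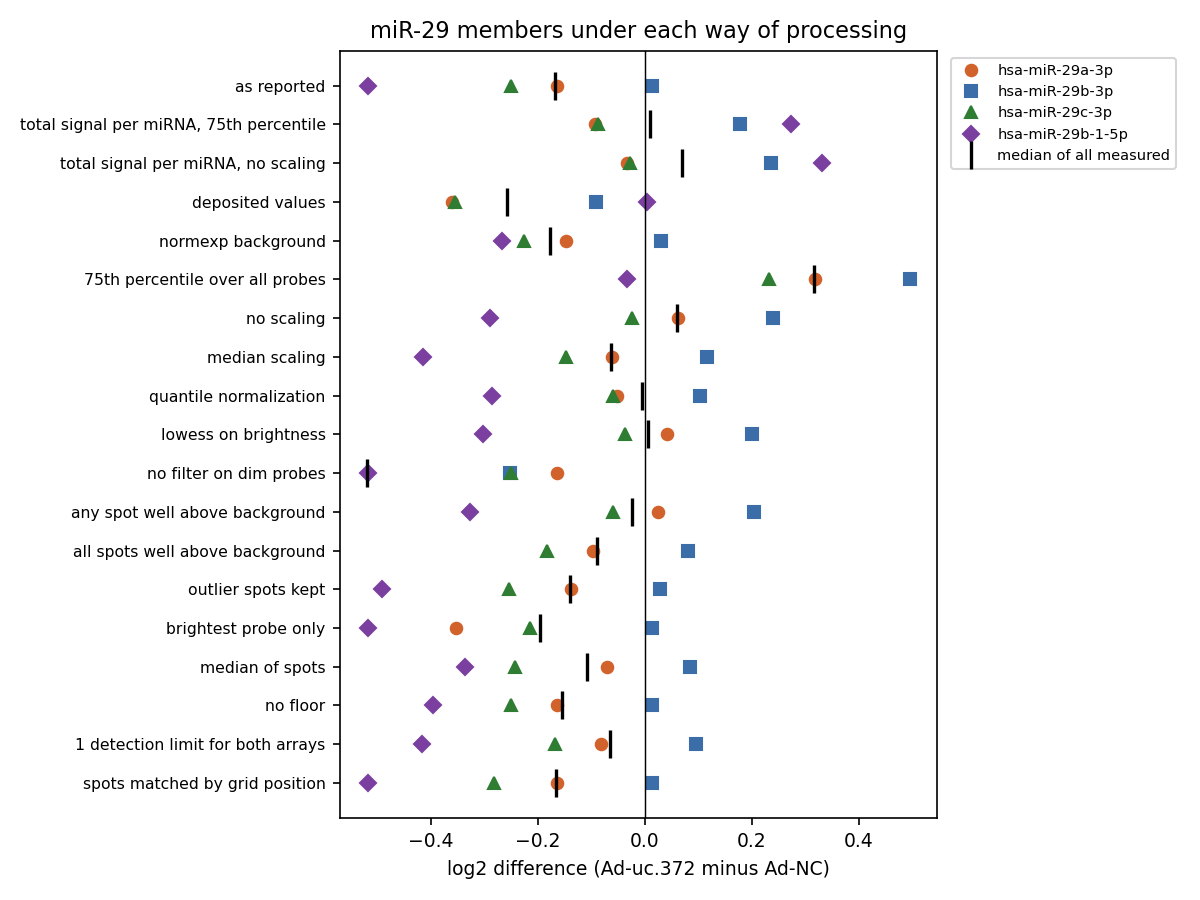
Log2 difference (Ad-uc.372 minus Ad-NC) of the 4 measured miR-29 members under each way of processing; symbols are members and black ticks the median of all miRNAs measured in that setting. miR-29b-3p lies right of the tick, by 0.11 to 0.27, a distance that a uniform scaling cannot change. Its own value moves from -0.25 to 0.50, and that of miR-29b-1-5p from -0.52 to 0.33. With no filter on dim probes the tick lies at -0.52, the difference between the scaled limits.

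Each member was also set against the median of all miRNAs measured in the same setting. A scaling that shifts all miRNAs of an array by the same amount cannot change this distance, so of the 18 alternatives 3 gave the reported distances by construction, and the other alternatives gave 13 distinct sets of values. miR-29b-3p lay above the median by 0.18 as reported and by 0.11 to 0.27 in the 13. The 0.27 came with no filter on dim probes. There the median of all 2549 miRNAs was -0.52, the difference between the scaled limits, so that distance was taken from the limit. Without that setting the distance was at most 0.23. In the same setting miR-29b-3p was no longer the highest 3p member, since its second probe, at background, was averaged in. miR-29c-3p lay below the median in 12 of the 13, all but the setting with no filter, and miR-29a-3p below in 6 and above in 7. miR-29b-1-5p had a value in 12 of the 13 and lay below the median in 10 and above it in 2. These alternatives reuse the same 2 arrays and do not replace replicates.

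The arrays hold no mRNA, so collagen and DNMT transcripts were not measured. Other miRNAs were examined from 2 lists. Of 8 miRNAs described as targeting DNA methyltransferases, 5 were measured on both arrays and none passed 1.5-fold. They had a median log2 difference of -0.15, with 4 below 0 and 1 above it, and ranged from -0.24 for miR-185-5p to 0.026 for miR-101-3p. Of 15 miRNAs linked to liver fibrosis, 7 were measured, with a median of 0.061, 3 below 0 and 4 above it. Among all 229 measured miRNAs, 169 (73.8%) lay below 0 and 60 above it, and these signs depend on the scaling. The lowest was miR-34a-5p, a p53-induced miRNA, at -0.37. The highest was miR-21-5p, a profibrotic miRNA abundant in liver tumors, at 0.76 (SD between spots 0.92), the only listed miRNA past 1.5-fold. Among all 229 measured miRNAs, 3 (1.31%) passed 1.5-fold upward and 6 (2.62%) downward. Both list medians lay near or above the -0.17 of all measured miRNAs.

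The miRNAs nearest to the median of the 3p members in their difference were miR-1972, miR-6869-5p, miR-425-5p, miR-7975 and miR-4634, all between -0.16 and -0.17. With 2 arrays this nearness rests on a single difference per miRNA.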

How the data were processed

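Labelled RNA of HepG2 cells was read on 2 arrays, 1 per condition. Agilent Feature Extraction (10.10 per the labels, 11.5.1.1 per the file headers) gave the deposited spot intensity after background subtraction and the total intensity of each probe and miRNA, without normalization between arrays. The deposited matrix holds log2 values that the authors normalized.

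Control and outlier spots were removed, spots under the detection limit were raised to it, and mean log2 levels per probe were scaled to the 75th percentile of the probes measured on both arrays. Measured probes of a miRNA were averaged with equal weight. SDs between spots are technical, and for differences both arrays' variances were summed. No test across samples was possible, and 2 arrays limit the precision. Named miRNAs were the members, miR-29b-2-5p, array miRNAs sharing a member's seed, the 5 nearest to the 3p median, and both lists' extremes; miR-519e-3p and the hepatocyte miRNAs were named after values were seen. Members and lists were chosen with earlier results of these data known. Alternatives covered the signal, background correction, scaling, dim-probe filter, fold, outliers and averaging, and matching by position was added after seeing the data. The steps were tested on data simulated from the Ad-NC array, with planted changes larger than the difference of any member. Differences of the members' size, and disagreement between probes of a miRNA, were not tested there. Python 3.11.15 (numpy 2.4.6, pandas 2.3.3, statsmodels 0.14.6, matplotlib 3.10.9) and R 4.3.3 (limma 3.58.1) were used.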

Additional observations from a re-analysis of the deposited data

How the results depend on the processing

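None of the members passed 1.5-fold under any alternative. The median of the members minus that of all measured miRNAs moved by less than the spread between spots in all 18 alternatives (-0.089 to 0.13). By construction 3 of the 18 cannot change it. The 0.13 came with no filter on dim probes, where the median of all miRNAs equaled the difference between the scaled limits. The number of members measured on both arrays was 3 when every spot had to be well above background and 6 with no filter on dim probes. Values that moved by more than the spread between spots did so mainly with the scaling. With the 75th percentile over all probes, which raised the median of all miRNAs by 0.48, the log2 difference was 0.32 for miR-29a-3p, 0.50 for miR-29b-3p, 0.23 for miR-29c-3p and -0.033 for miR-29b-1-5p, and the members' median was 0.28. With no scaling miR-29c-3p was -0.023, and with lowess on brightness -0.036. With total signals per miRNA miR-29b-1-5p was 0.27 (75th percentile) and 0.33 (no scaling), and without scaling miR-29c-3p was -0.027 and the members' median 0.10. In the deposited values miR-29b-1-5p was 0.0049. With no filter miR-29b-3p was -0.25, since its probe at background enters at the limit. No paired analysis was possible because there was only 1 array in each group. Slide and scan, common to both arrays, could not enter a fit as a block. Signals near the limit, as for miR-29b-1-5p, bound what these arrays can show for the 5p arms.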
